A study of Mus musculus with 6 samples.

Results

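The genes described here are a list of 37 mouse genes of the cell cycle and of DNA replication, from the G1 cyclins to the proteins that separate the chromosomes, and they were measured in liver RNA. The list was set by gene name. A total of 36 of the 37 genes had a probe set of their own among the 18193 genes measured, and Ccnb1 (cyclin B1) is not named by such a probe set in the annotation used here. The arrays compared A/J-12SM mice, a consomic strain of A/J background in which chromosome 12 comes from SM/J, with A/J mice. All mice were male and received a high-fat diet for 7 weeks, and the study's methods give feeding from 6 to 13 weeks of age and a 4-h fast before the liver was taken. There were 3 arrays per strain, 6 in all, each with the combined RNA of 3 mice, so differences between single mice cannot be seen. None of the listed genes lies on chromosome 12 (0 of 36), so each gene lies on a chromosome that the consomic strain was built to keep from A/J.

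Cells enter the cycle in G1, when D-type cyclins and their kinases inactivate the retinoblastoma protein and release E2F factors, which switch on the genes of DNA replication. Replication origins are licensed by CDC6 and CDT1, which load the MCM helicase, and the DNA is copied around the sliding clamp PCNA. Genes of G2 and mitosis are transcribed later, largely through the DREAM and MuvB complexes with B-MYB and FOXM1, and their products are removed at mitotic exit by the anaphase-promoting complex. In the adult liver nearly all hepatocytes rest outside the cycle, and the mRNAs of mitotic genes are scarce until the tissue is injured or partly removed.

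The start regions of part of the genes carry the letters of known sequence elements of this timing. Promoter windows of 250 bases before to 50 after the transcription start were found for 28 of the 37 genes among 32851 RefSeq windows of 27025 genes (GRCm38.p6), and 4 motifs were searched on both strands. The cell cycle homology region (CHR, TTTGAA), an element of genes expressed in G2 and mitosis, was present in 13 of the 28 genes (46.4%) and in 20.2% of all genes with a window. The 13 comprised 12 of the 17 genes of S phase cyclins, G2 and mitosis and 1 of the 11 genes of G1, licensing and the replication fork. The CCAAT box (CCAAT), which NF-Y binds, was present in 21 of the 28 genes (75.0%), against 41.1% of all genes. Both elements together were found in 13 of the 28 genes, against 8.97% of all genes. E2F-type letters (TTCCCGC or TTGGCGC) were found in 10 of the 28 genes (35.7%), among them 7 of the 11 early genes and 3 of the 17 late ones, against 7.79% of all genes. The CHR variant TTTAAA was found in 8 of the 28 genes (28.6%), against 14.9% of all genes. A match of letters is a description and not a measured binding site.

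Windows of 120 bases before to 30 after the start are shown for genes on which the values below turn, all on the minus strand of GRCm38.p6 and read 5′ to 3′, with the CHR, the CCAAT box and the E2F letters of either strand in capitals. Ccnb2 (chr9:70421525-70421674), Top2a (chr11:99024160-99024309) and Cdc20 (chr4:118437314-118437463) represent the late genes, with 1 or more CCAAT boxes ahead of a CHR, which Top2a has in reverse orientation. Mcm7 (chr5:138171854-138172003, 1 of its starts) and Mcm3 (chr1:20820283-20820432) represent the licensing genes. The last capitals of Mcm7 are E2F letters in reverse that share bases with a CCAAT box.
Ccnb2: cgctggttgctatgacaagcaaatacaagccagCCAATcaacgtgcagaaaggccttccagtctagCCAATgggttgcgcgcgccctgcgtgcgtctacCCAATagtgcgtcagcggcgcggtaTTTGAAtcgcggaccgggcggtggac
Top2a: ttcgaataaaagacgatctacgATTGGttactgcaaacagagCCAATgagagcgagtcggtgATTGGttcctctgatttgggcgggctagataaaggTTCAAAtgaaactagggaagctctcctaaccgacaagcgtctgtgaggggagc
Cdc20: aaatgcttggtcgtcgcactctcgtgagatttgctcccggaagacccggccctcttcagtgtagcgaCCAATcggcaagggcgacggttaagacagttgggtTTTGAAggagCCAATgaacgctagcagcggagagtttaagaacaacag
Mcm7: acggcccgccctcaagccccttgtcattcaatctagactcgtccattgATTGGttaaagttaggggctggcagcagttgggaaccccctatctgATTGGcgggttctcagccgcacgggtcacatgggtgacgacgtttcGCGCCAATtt
Mcm3: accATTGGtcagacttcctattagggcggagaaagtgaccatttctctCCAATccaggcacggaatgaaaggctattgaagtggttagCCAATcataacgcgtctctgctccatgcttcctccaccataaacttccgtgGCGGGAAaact

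Values below are log2 signals after quantile normalization, and differences are A/J-12SM minus A/J. No member was called between the strains: 0 of 36 reached an adjusted p under 0.05 in limma in either direction, where 12 of 18193 genes did (0.066%, with 0.0275% higher and 0.0385% lower). At an unadjusted p under 0.05, 5 of the 36 members stood out, 4 with lower and 1 with higher values in A/J-12SM livers, against 6.78% of all genes (3.39% in each direction). All arrays of 1 strain lay above all arrays of the other for 7 of 36 members, 6 of them lower and 1 higher in A/J-12SM, against 12.3% of all genes (6.34% lower and 5.97% higher). Values were lower in A/J-12SM livers for 23 of 36 members, against 50.9% of all genes, and the median difference was -0.21 for the members and -0.005 for all genes. For every member whose strains did not overlap, the exact permutation test (two-sided) gave p = 0.1, the smallest that 3 arrays against 3 allow.

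Signal strength limited most of these values. The brightness of a probe set depends on its probes as well as on the mRNA, so it is read here only against background and not as an order of the genes. Only 9 of the 36 members were at or above the median brightness of all genes (6.19), namely Pcna, Ccnd1, Mcm7, Cdt1, Mcm4, Gins1, Foxm1, Mcm6 and Mcm2. Among 18 genes that liver does not express, such as those of retina, testis and pancreas, the mean log2 signal reached 7.77 and its median was 4.56, and 33 of the 36 members were not above that maximum. Pcna, Ccnd1 and Mcm7 were the 3 members above it. The maximum came from 1 gene, Oxt, at percentile 69.1 of all genes, so a level below it does not show that a gene is not expressed. The 90th percentile of these 18 genes was 7.27, which Cdt1 (7.36) also passed. The median SD between replicate arrays was 0.18 for the 9 brighter members and 0.53 for the 27 dimmer ones. The median difference was 0.08 for the brighter members and -0.30 for the dimmer ones, of which 19 had lower values in A/J-12SM livers. For all genes the medians were 0.001 at or above the median brightness and -0.025 below it. The range of single arrays for the members is shown in the plot of levels.

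**Figure D1:**
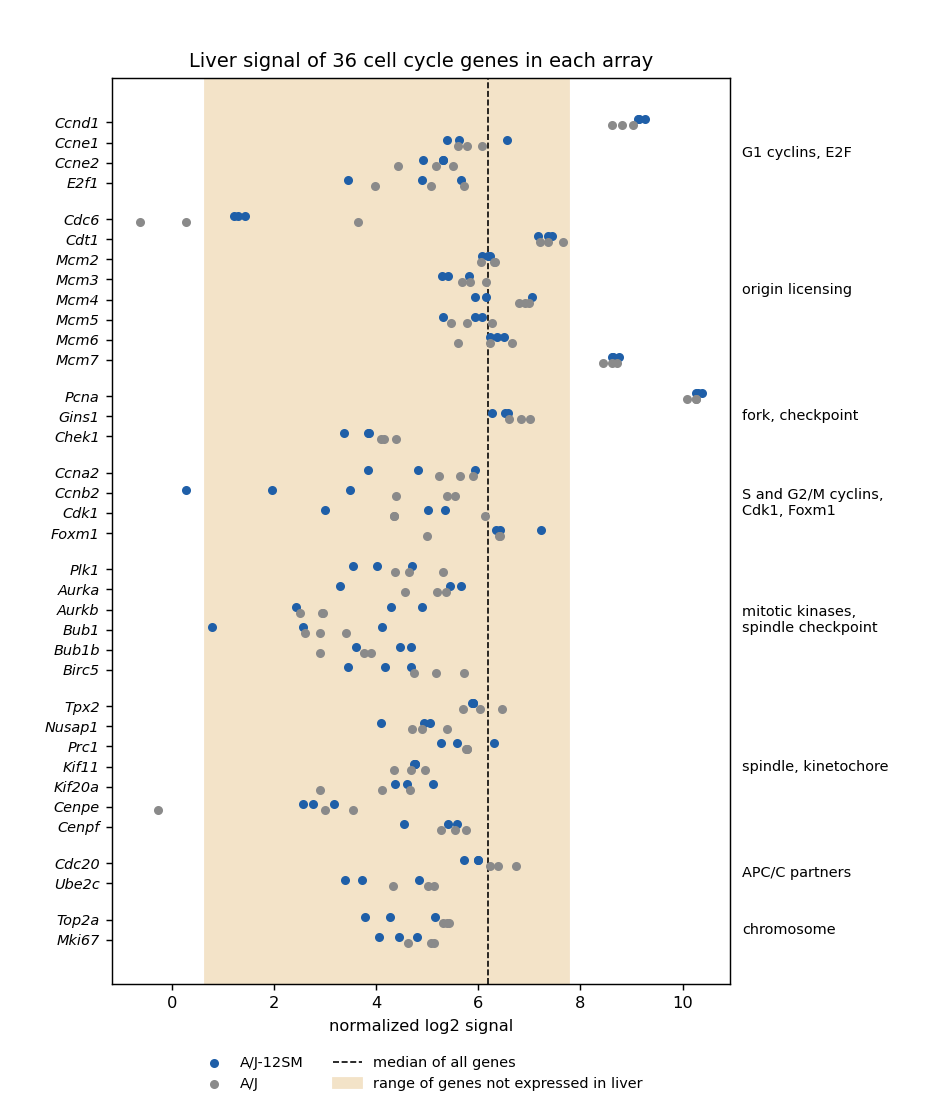
Log2 signal after quantile normalization of each of the 36 members on each array, with A/J-12SM arrays in blue and A/J arrays in grey. The shaded band is the range of the mean signals of 18 genes that liver does not express, and the dashed line is the median of all genes. Most members lie among the levels of those genes, and Pcna, Ccnd1 and Mcm7 lie above their maximum of 7.77.

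Among the G1 genes, Ccnd1 (cyclin D1, which with CDK4 or CDK6 starts the phosphorylation of the retinoblastoma protein) was the 1 member of the 3 above the genes that liver does not express whose strains did not overlap. Ccnd1 (GRCm38.p6, chr7:144929931-144939831) had log2 signals of 9.14, 9.26 and 9.13 in A/J-12SM livers, against 8.61, 9.02 and 8.82 in A/J livers. All 3 A/J-12SM arrays were above all 3 A/J arrays. The means were 9.18 ± 0.07 in A/J-12SM livers and 8.82 ± 0.20 in A/J livers (SD, n = 3 each). The difference of 0.36 (SE 0.12, 95% interval 0.09 to 0.63), or 1.28-fold, had an unadjusted p of 0.0134 and an adjusted p of 0.678 in limma. A pair of further Ccnd1 probe sets, which read the same mRNA in the same arrays, gave 8.52, 8.86 and 8.47 in A/J-12SM livers against 8.12, 8.30 and 8.09 in A/J livers, and 7.60, 7.77 and 7.68 in A/J-12SM livers against 7.16, 7.45 and 7.10 in A/J livers. Neither overlapped between the strains, and each differed by 0.45 (adjusted p = 0.622 and 0.666 in limma). The Ccnd1 difference ran from 0.25 to 0.46 when single arrays were left out. In the deposited signals without normalization it was 0.14, on a scale where the median of all genes was at -0.22. There the strains overlapped, with signals of 501.9, 587.0 and 518.0 in A/J-12SM livers, against 433.5, 540.8 and 490.0 in A/J livers. Cyclin E activates CDK2 at the G1/S boundary, and the genes Ccne1 and Ccne2 differed by 0.04 and 0.14. Ccne1 had 5.63, 6.56 and 5.39 in A/J-12SM livers and 6.07, 5.61 and 5.78 in A/J livers. E2f1, the activating E2F factor, had values of 4.89, 3.44 and 5.65 in A/J-12SM livers and 5.72, 3.98 and 5.08 in A/J livers. The strains overlapped widely for these last 3 genes.

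The 8 licensing genes had a median difference of -0.06, from -0.52 to 0.21, and none reached an unadjusted p of 0.05. Mcm7, a subunit of the MCM helicase, had 8.61, 8.76 and 8.64 in A/J-12SM livers, against 8.45, 8.72 and 8.61 in A/J livers. The arrays of the strains overlapped, the difference was 0.08 (SE 0.11, adjusted p = 0.935 in limma), and its 95% interval of -0.17 to 0.32 spans folds of 0.888 to 1.25. The other 3 Mcm7 probe sets differed by 0.00, 0.07 and 0.18. Mcm4, another helicase subunit, had 5.93, 6.15 and 7.06 in A/J-12SM livers, against 6.99, 6.80 and 6.92 in A/J livers. A/J-12SM replicate 3 was the highest of all 6 arrays and the other A/J-12SM arrays were the lowest. The Mcm4 difference was -0.52 (SE 0.28, interval -1.15 to 0.10, adjusted p = 0.829 in limma), -0.86 without A/J-12SM replicate 3 (adjusted p = 0.397), and -0.22 in a second probe set. Mcm2 had 6.23, 6.18 and 6.07 in A/J-12SM livers, against 6.30, 6.05 and 6.33 in A/J livers, and Mcm6 had 6.23, 6.51 and 6.37 in A/J-12SM livers, against 5.61, 6.23 and 6.66 in A/J livers. The strains overlapped in both subunits (differences -0.06 and 0.20, adjusted p = 0.974 and 0.931 in limma). Mcm3 had 5.81, 5.41 and 5.28 in A/J-12SM livers, against 5.84, 6.15 and 5.67 in A/J livers (difference -0.38), and Mcm5 had 5.93, 5.31 and 6.08 in A/J-12SM livers, against 5.47, 5.77 and 6.26 in A/J livers (difference -0.06). These also overlapped, so that over the ring 4 of the 6 subunits had lower and 2 had higher values in A/J-12SM livers.

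The loading factors of the helicase also overlapped between the strains. Cdt1, which brings the MCM ring to the origin, had 7.36, 7.16 and 7.44 in A/J-12SM livers, against 7.36, 7.65 and 7.21 in A/J livers. Its difference was -0.09 (95% interval -0.45 to 0.27, adjusted p = 0.95 in limma). Cdc6, the ATPase that recruits CDT1 and the MCM ring, was near background, with 1.42, 1.30 and 1.21 in A/J-12SM livers and -0.62, 0.28 and 3.64 in A/J livers, so the A/J arrays lay on either side of the A/J-12SM arrays.

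Pcna (proliferating cell nuclear antigen, the sliding clamp of DNA polymerases) was far above background. It had 10.38, 10.31 and 10.26 in A/J-12SM livers, against 10.09, 10.27 and 10.26 in A/J livers. The difference of 0.11 (SE 0.09, adjusted p = 0.879 in limma) had a 95% interval of -0.09 to 0.31, or folds of 0.942 to 1.24. Gins1, a subunit of the GINS complex that joins the MCM ring in the active helicase, had 6.27, 6.53 and 6.58 in A/J-12SM livers, against 6.84, 6.60 and 7.01 in A/J livers. The strains did not overlap, but the nearest arrays were 0.03 apart, and the difference of -0.36 (SE 0.19, interval -0.78 to 0.07) had an adjusted p of 0.829 in limma. A second Gins1 probe set differed by -0.68. Chek1, the checkpoint kinase that answers stalled forks, had 3.84, 3.36 and 3.85 in A/J-12SM livers, against 4.09, 4.16 and 4.39 in A/J livers, without overlap. The other 4 Chek1 probe sets had higher values in A/J-12SM livers, by 0.13 to 0.53, so the probe sets of this gene disagreed in direction.

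**Figure D2:**
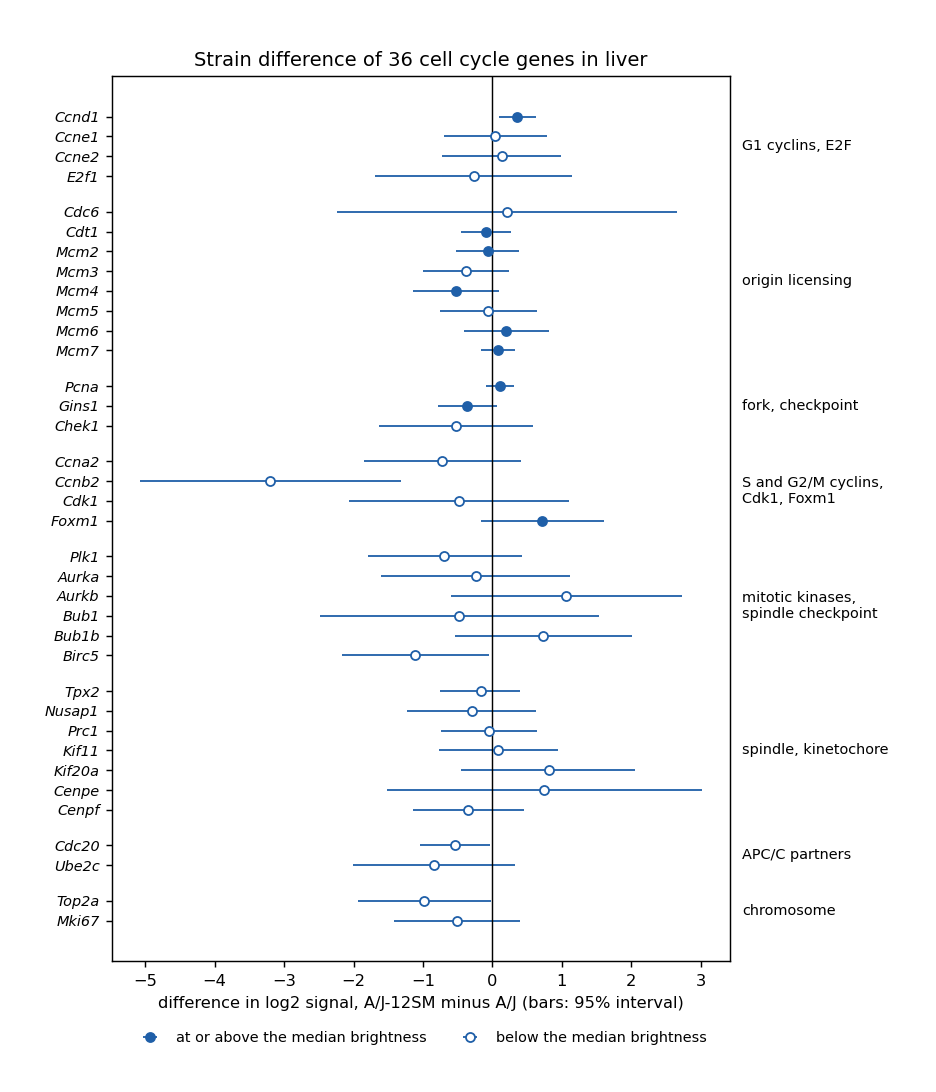
Difference in log2 signal (A/J-12SM minus A/J) of each of the 36 members with its 95% interval from limma, grouped by role. Ccnd1 lies above 0 at 0.36, the licensing genes lie between -0.52 and 0.21, and Ccnb2 has the lowest value at -3.20 with an interval of -5.07 to -1.32.

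The 21 members with roles from S phase cyclins to mitosis had lower values in A/J-12SM livers in 15 cases, with a median difference of -0.35. Of these members, 20 of 21 were below the median brightness and none (0 of 21) was above the genes that liver does not express. The 15 members of G1, licensing and the fork had lower values in 8 cases, with a median of -0.06. The 4 members lower at an unadjusted p under 0.05 all belonged to the late roles, and they are given next.

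Ccnb2 (cyclin B2, a partner of CDK1 in mitosis) had the largest difference of any member. Its log2 signals were 3.48, 0.28 and 1.96 in A/J-12SM livers, against 4.38, 5.38 and 5.54 in A/J livers. All 3 A/J-12SM arrays were below all 3 A/J arrays, but only 1 probe set read this gene. Its deposited signals were near background in A/J-12SM livers, at 9.7, 1.3 and 3.5. In A/J livers they were 23.7, 47.3 and 45.2, where the median signals of these arrays were 49.9, 48.6 and 41.4. In both strains the mean log2 signal of Ccnb2 was within the range of genes that liver does not express. The means were 1.90 ± 1.60 in A/J-12SM livers and 5.10 ± 0.63 in A/J livers (SD, n = 3 each). The difference was -3.20 (SE 0.84, interval -5.07 to -1.32), with an unadjusted p of 0.00358 and an adjusted p of 0.512 in limma. With an offset of 9.2 signal units added before the logarithm the difference was -1.65, so its size depends on how values near background are treated.

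Birc5 (survivin, a member of the chromosomal passenger complex) had 4.68, 3.44 and 4.17 in A/J-12SM livers, against 4.73, 5.71 and 5.17 in A/J livers. The strains were separated by 0.05 at the nearest arrays, the difference was -1.11 (SE 0.47, adjusted p = 0.798 in limma), and 1 probe set read the gene. Cdc20, the activator of the anaphase-promoting complex at anaphase onset, had 6.0, 6.0 and 5.72 in A/J-12SM livers, against 6.38, 6.22 and 6.73 in A/J livers. Its difference was -0.54 (SE 0.23, adjusted p = 0.792 in limma), yet the other probe sets of Cdc20 differed by 0.20 and 0.36. Top2a, the topoisomerase that untangles sister chromosomes, had 5.16, 4.27 and 3.77 in A/J-12SM livers, against 5.31, 5.39 and 5.43 in A/J livers. Its difference was -0.98 (SE 0.43, adjusted p = 0.80 in limma), and its other probe sets differed by 0.31 and 0.63. Thus for Cdc20 and Top2a the lower value was found in the brightest probe set alone.

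The other genes of cyclins, CDK1 and Foxm1 overlapped between the strains. Foxm1, a transcription factor of G2 genes, had 6.35, 7.22 and 6.42 in A/J-12SM livers, against 6.42, 6.41 and 5.00 in A/J livers. Its difference was 0.72 (SE 0.40, interval -0.17 to 1.61, adjusted p = 0.83 in limma), or 0.25 without A/J replicate 3, and its other 3 probe sets had lower values in A/J-12SM livers (-1.20, -1.11 and -0.30). Ccna2 (cyclin A2, of S phase and G2) had 5.94, 3.83 and 4.81 in A/J-12SM livers and 5.23, 5.89 and 5.64 in A/J livers, with a difference of -0.72 and of -0.61 in a second probe set. Cdk1, the mitotic kinase, had 5.35, 3.0 and 5.01 in A/J-12SM livers and 4.34, 4.34 and 6.13 in A/J livers. In Ccna2 and Cdk1 the A/J-12SM arrays ranged more widely than the A/J arrays.

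The 6 mitotic kinases, checkpoint and passenger genes ranged from -1.11 (Birc5) to 1.06, with 4 of 6 lower. Aurkb, the kinase of the passenger complex, gave the 1.06, with 2.43, 4.28 and 4.89 in A/J-12SM livers and 2.93, 2.96 and 2.51 in A/J livers, but a second Aurkb probe set differed by -1.66. Aurka, a centrosome kinase, had 3.29, 5.45 and 5.65 in A/J-12SM livers and 4.56, 5.37 and 5.19 in A/J livers, a difference of -0.24. Plk1, a kinase of mitotic entry and exit, and the spindle checkpoint genes Bub1 and Bub1b differed by -0.69, -0.48 and 0.73, each with overlapping strains. The 7 genes of the spindle, kinetochore and midzone had a median of -0.05, from -0.35 for Cenpf to 0.81 for Kif20a, with 4 lower and 3 higher. Kif20a, a kinesin of the midzone, had 4.61, 4.37 and 5.11 in A/J-12SM livers and 4.66, 2.90 and 4.12 in A/J livers. Tpx2, which nucleates spindle microtubules, had 5.89, 5.90 and 5.87 in A/J-12SM livers and 6.46, 6.03 and 5.69 in A/J livers (difference -0.17). Its other 3 probe sets differed by -0.03, -0.46 and -2.79, and the last of these, the dimmest, had 0.53, 0.27 and -0.57 in A/J-12SM livers, against 3.14, 4.25 and 1.20 in A/J livers, without overlap (adjusted p = 0.687 in limma). Nusap1, Prc1, Kif11 and Cenpe of the same group differed by -0.30, -0.05, 0.08 and 0.75, and in the probe set used for each gene no member of the group separated the strains. Ube2c, the ubiquitin-conjugating enzyme of the anaphase-promoting complex, had 4.83, 3.73 and 3.38 in A/J-12SM livers, against 4.33, 5.14 and 5.01 in A/J livers, an overlap with a difference of -0.84. Mki67, the proliferation marker Ki-67, had 4.80, 4.06 and 4.45 in A/J-12SM livers, against 4.62, 5.14 and 5.08 in A/J livers, and its difference of -0.51 (adjusted p = 0.879 in limma) left the strains overlapping.

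Probe sets of 1 gene often disagreed. The members had 84 probe sets, 48 of them beside the brightest 1 used for each gene, and 25 of these 48 had the sign of the brightest. Only 6 of the 48 were at or above the median brightness, those of Ccnd1, Mcm4 and Mcm7. None of the 84 was called (0 of 84), against 0.0555% of all 45037 probe sets, and 8 had an unadjusted p under 0.05, against 6.23% of all. The brightest probe set of 9 members was of a design that can share probes with other transcripts (Aurkb, Ccne1, Cdc20, Mcm2, Mcm3, Mcm4, Mcm5, Mcm7 and Prc1), so their values are less certain.

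**Figure D3:**
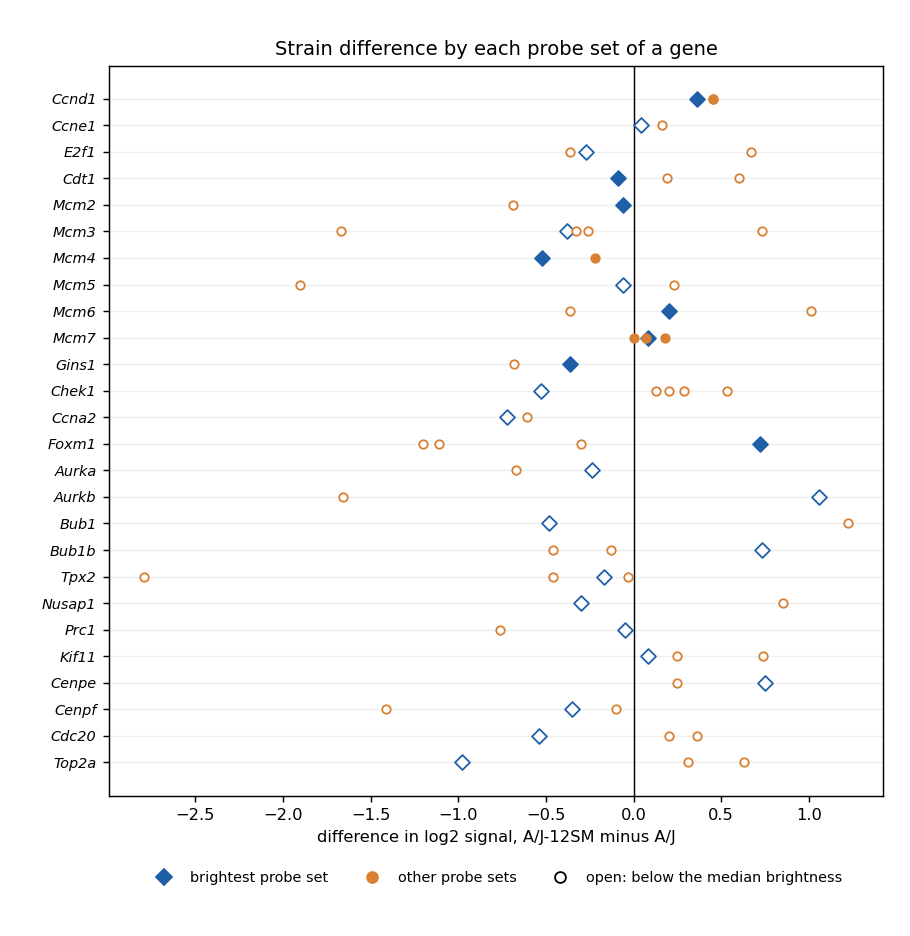
Differences in log2 signal (A/J-12SM minus A/J) of the probe sets of members with more than 1 probe set, with the brightest of each gene as a diamond, the others as circles and those below the median brightness open. The 3 probe sets of Ccnd1 lie together at 0.36 to 0.45, whereas those of Aurkb, Foxm1, Cdc20 and Top2a lie on both sides of 0.

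The members moved together only in part. Averaged over all 36 members after each gene was centred on its mean, the arrays stood at -0.10, -0.22 and 0.01 in A/J-12SM livers and at -0.05, 0.12 and 0.24 in A/J livers. For the 21 late genes the means were -0.14, -0.29 and -0.03 in A/J-12SM livers, against -0.01, 0.28 and 0.19 in A/J livers, without overlap but with only 0.02 between the nearest arrays. The late genes include Ccnb2 (difference -3.20), and a gap this small can turn on single genes. It is therefore not read here as a trait of the late genes as a set. For the 15 early genes the means were -0.05, -0.12 and 0.06 in A/J-12SM livers and -0.09, -0.11 and 0.32 in A/J livers, and the strains overlapped. A/J replicate 3 was the highest array for 12 of 36 members, and A/J-12SM replicate 2 the lowest for 9. Without A/J-12SM replicate 1 the late genes with lower values numbered 12 of 21, and the median of all members was -0.10. In the deposited signals without normalization, 16 of the 21 late and 14 of the 15 early genes had lower values, where the median of all genes was -0.22. Of the 13 measured genes with a CHR, shown above for Ccnb2, Top2a and Cdc20, 11 had lower values in A/J-12SM livers (median -0.48), and of 14 with a window but no CHR 8 had lower values (median -0.08). Of the 13, 12 are late genes below the median brightness, so the element, the late role and the dim signal cannot be told apart here. The comparison also leaves out the members without a window: Ccnd1, Ccne2, Mcm4, Gins1, Foxm1, Aurkb, Kif20a, Ccna2 and Tpx2. Among these, the late genes Foxm1 (0.72), Aurkb (1.06) and Kif20a (0.81) had higher values, and Ccna2 (-0.72) and Tpx2 (-0.17) lower values.

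**Figure D4:**
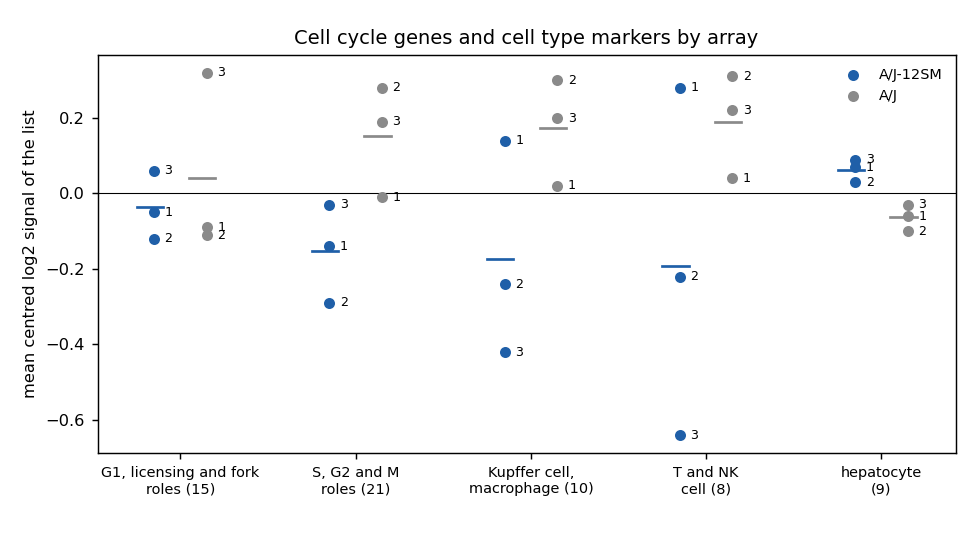
Mean over members of the log2 signal centred per gene, for each array of A/J-12SM and A/J, for the early genes (G1, licensing and fork), the late genes (S, G2 and M) and the markers of macrophages, T and NK cells and hepatocytes, with short lines for the mean of 3 arrays. The late genes lie at -0.29 to -0.03 in A/J-12SM arrays and at -0.01 to 0.28 in A/J arrays, and the early genes overlap. The late genes include Ccnb2, the member with the largest difference, and the gap between their arrays is small enough to turn on single genes.

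In liver RNA, fewer cycling cells and less RNA per cell cannot be told apart, and several cell types can contribute. All 9 hepatocyte markers were bright (median log2 signal 13.64), with a median difference of 0.01. Their mean centred signals were 0.07, 0.03 and 0.09 in A/J-12SM arrays, against -0.06, -0.10 and -0.03 in A/J arrays, without overlap, and Pck1 (0.81), Cps1 (0.28) and Alb (0.11) were the 3 markers higher in every A/J-12SM array than in any A/J array (none called). The markers of Kupffer cells and macrophages, which can divide in the adult liver, had lower values in A/J-12SM livers for 10 of 10 genes (median -0.30, none called). Their mean centred signals were 0.14, -0.24 and -0.42 in A/J-12SM arrays and 0.02, 0.30 and 0.20 in A/J arrays, overlapping between the strains. Cd5l (-0.43), Mpeg1 (-0.46) and Aif1 (-0.59) were the 3 of these markers lower in every A/J-12SM array than in any A/J array. The summed normalized signals of the 10 markers were 5891 to 7199 in A/J-12SM livers and 6906 to 8624 in A/J livers. Of the T and NK cell markers, 6 of 8 had lower values (median -0.39), and none of the 8 was above the genes that liver does not express. Summed signals of these 8 were 120.6 to 220.2 in A/J-12SM livers and 185.9 to 226.7 in A/J livers. The 5 erythroid markers measured had a median of -0.06, with summed signals of 1674 to 1911 in A/J-12SM livers and 2126 to 2312 in A/J livers. The sums followed mostly Alas2 (difference -0.44), and the other 4 differed by -0.20 to 0.10, with 2 lower and 2 higher. For the 6 neutrophil and the 5 bile duct markers the medians were -0.21 and -0.43, and none was above the genes that liver does not express. Of the bile duct markers 3 had lower and 2 higher values, and Krt7 (-2.22, with overlapping strains) had an unadjusted p under 0.05 in limma. For B cells 5 of 6 markers had higher values (median 0.25), 4 of 7 endothelial markers had lower values (median -0.01), and 8 of 9 stellate cell and fibroblast markers had higher values (median 0.03), with Reln (0.46) and Lum (0.64) at an unadjusted p under 0.05. The part of these cells in the lower values of the late genes was not tested.

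Other genes of the same pathways were also without calls. Of 36 further replication genes measured, 19 had lower and 17 higher values, with a median of -0.01, 4 at an unadjusted p under 0.05 and 0 called. Among them Rfc1, the large subunit of the clamp loader, had 7.18, 6.91 and 6.82 in A/J-12SM livers, against 7.45, 7.39 and 7.29 in A/J livers (difference -0.41, adjusted p = 0.752 in limma). Tk1, thymidine kinase of the nucleotide salvage pathway, had 8.06, 7.91 and 8.18 in A/J-12SM livers, against 7.81, 7.31 and 7.83 in A/J livers (difference 0.40, adjusted p = 0.789 in limma). These genes moved in opposite directions, each without overlap of the strains. Rrm2, a ribonucleotide reductase subunit on chromosome 12 named here after its values were seen, was below the median brightness. It had 5.47, 5.58 and 5.26 in A/J-12SM livers, against 6.32, 6.66 and 6.18 in A/J livers, also without overlap (difference -0.95, adjusted p = 0.485 in limma). By real-time RT-PCR the study reported significantly lower Rrm2 mRNA in A/J-12SM than in A/J livers. Pole, the catalytic subunit of DNA polymerase epsilon, named likewise after its values were seen, had 4.57, 2.94 and 3.15 in A/J-12SM livers, against 2.06, 1.44 and 1.32 in A/J livers (difference 1.95, adjusted p = 0.755 in limma). Its signals were among those of genes that liver does not express, and it ran the opposite way to Rfc1 and Rrm2.

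Of 36 further mitosis genes, 20 had lower and 16 higher values (median -0.02), and Nek2, a centrosome kinase, was the only 1 at an unadjusted p under 0.05, with a difference of -0.42 (adjusted p = 0.80 in limma). Of 7 CDK inhibitors 3 had lower and 4 higher values. Cdkn1a (p21) had 5.64, 6.07 and 6.29 in A/J-12SM livers, against 6.50, 6.66 and 6.86 in A/J livers, with a difference of -0.68 (SE 0.23, adjusted p = 0.706 in limma). Cdkn1b (p27) had 8.10, 8.11 and 8.35 in A/J-12SM livers, against 7.93, 7.99 and 7.65 in A/J livers, with a difference of 0.33 (SE 0.14, adjusted p = 0.789 in limma). Neither inhibitor overlapped between the strains, and they pointed in opposite directions. Cdkn2c (difference 0.17) did not overlap either. Thus 3 of the 7 inhibitors were without overlap, 1 lower and 2 higher, against 12.3% of all genes. The kinases Cdk2, the partner of cyclins E and A, and Cdk7, of the CDK-activating complex, differed by -0.30 and -0.29 (adjusted p = 0.798 and 0.80 in limma), while the 8 genes of their list had a median of -0.01. The 17 regulators of the RB, E2F and DREAM group had a median of -0.08, with 9 lower and 8 higher values. Lin52, a MuvB subunit on chromosome 12 and the 1 gene of that group at an unadjusted p under 0.05, also named after its values were seen, had 6.08, 6.10 and 5.92 in A/J-12SM livers, against 5.03, 5.20 and 5.45 in A/J livers, without overlap (difference 0.81, adjusted p = 0.666 in limma). It was below the median brightness.

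Across the 6 arrays, the mean of the 9 brighter members was followed most closely, among 55 other genes of these pathways with probe sets no dimmer than the median, by E2f6 (Pearson's r = 0.851, Spearman's rho = 0.771), Prim1 (0.776 and 0.714) and Mcm10 (0.758 and 0.829). These values describe 6 arrays that share 2 strains and were picked as the highest of 55, so they carry no test.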

How the data were processed

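Liver RNA of A/J-12SM and A/J mice was measured on 6 Affymetrix arrays, 3 per strain, each with RNA of 3 mice; the labels call them biological replicates. The authors deposited intensity values, 1 linear MAS5 signal per probe set and array; the scaling is not given in the sources used here. Trimmed means were 171, 186 and 178 in A/J-12SM arrays and 213, 201 and 204 in A/J arrays, so log2 signals were quantile normalized, which removes any overall difference. Precision rests on 3 arrays per strain. Detection calls were not used.

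Without the 64 controls, 45037 probe sets entered the fit (limma 3.58.1, R 4.3.3; eBayes with trend, Benjamini-Hochberg adjustment, called under 0.05). Names came from the platform annotation, which gave 34945 probe sets 1 gene, 932 several and 9160 none; 34741 of the first were matched to RefSeq GRCm38.p6. The probe set with the highest mean stood for each gene. The script was tested on simulated data, but how well it finds small differences in dim members is not given here. Promoter windows and motifs were read from RefSeq with Python 3.11.15; figures used matplotlib 3.10.9.

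Members given array by array were those at or above the median brightness and the 6 with the smallest unadjusted p; of the rest, up to 2 of each role (the brightest and the largest difference), with further members chosen after their values were seen. The members and lists were chosen with earlier results of these data known. Alternatives were the deposited scale, median and trimmed mean scaling, an offset, the mean over probe sets, a filter on dim probe sets, 1 prior variance, Student's t-test, a replicate block and leaving out each array.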

Additional observations from a re-analysis of the deposited data

How the results depend on the processing

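No member was called under any of the 15 other settings (0 of 36, or of the 26 left by the filter on dim probe sets), and 2 to 7 had an unadjusted p under 0.05. The median over the members, -0.208, was -0.135 with an offset of 9.2 and -0.435 in the deposited signals, where that of all genes was -0.22, and ran from -0.304 (without A/J replicate 1) to -0.103 (without A/J-12SM replicate 1). The median of the 9 brighter members, 0.077, was -0.144 in the deposited signals and ran from -0.030 (without A/J replicate 1) to 0.141. With the mean over probe sets the sign turned for Aurkb (-0.30), Bub1 (0.37), Cdc20 (0.0049), Cdt1 (0.23), Chek1 (0.13), E2f1 (0.02), Foxm1 (-0.47) and Nusap1 (0.27). In the deposited signals it turned for Ccne1 (-0.21), Ccne2 (-0.12), Cdc6 (-0.02), Kif11 (-0.16), Mcm6 (-0.05), Mcm7 (-0.14) and Pcna (-0.10). It also turned for Cdc6 with the offset (-0.16) and Ccne1 with trimmed mean scaling (-0.0039). Leaving out 1 array turned 14 members: Aurka (-0.67 to 0.51), Bub1 (-1.29 to 0.37), Ccne1 (-0.31 to 0.27), Ccne2 (-0.17 to 0.37), Cdc6 (-0.66 to 1.47), Cdk1 (-0.93 to 0.24), Cdt1 (-0.19 to 0.04), Cenpe (-0.44 to 1.47), E2f1 (-0.77 to 0.34), Kif11 (-0.07 to 0.22), Mcm5 (-0.24 to 0.17), Mcm6 (-0.07 to 0.45), Prc1 (-0.35 to 0.18) and Tpx2 (-0.36 to 0.03). The cause was not tested. Deviations of arrays with the same number had r = -0.057, 0.088 and 0.156, and those of other pairs ran from -0.227 to 0.148. Deviations from a mean of 3 arrays are not independent, so these values cannot decide whether the numbers pair the samples. The labels do not say. With the replicate block 0 members were called and the median was -0.208. Over all genes, limma called 12, against 14 with the replicate block, 20 in the deposited signals, 8 with median centring or the offset, 0 with 1 prior variance and 2 (without A/J replicate 2) to 8 with 1 array left out. Student's t-test called 0 after Benjamini-Hochberg adjustment and 1124 at an unadjusted p under 0.05, 4 of them members. The study's methods give this test for means of A/J and A/J-12SM mice, whereas its array genes were picked by fold change. Faint signals limit the dimmer members most.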
